A study of Mus musculus with 4 samples.

Results

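Zymogen granules are the storage organelles of the pancreatic acinar cell, and the 5 genes described here, Zg16, Sycn, Gp2, Cuzd1 and Dmbt1, encode proteins of their membrane, matrix or content. They were taken by name, as 5 of the 32288 genes in the deposited count table, by a rule that uses no measured value. Earlier results of these data were known when they were chosen. Across 4 mice given caerulein, all 5 transcripts were abundant in cells that the authors typed as acinar. In cells typed MucinDuctal, a mucin-producing type found in these mice, Zg16, Sycn, Gp2 and Cuzd1 were far lower (mean log2 ratios to acinar cells of the same mouse of -6.19 to -3.97), while Dmbt1 levels overlapped those of acinar cells.

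The study followed the fate of acinar cells during chronic pancreatitis. Mice of genotype Ptf1aCre-ERTM;ROSAYFP/+, backcrossed into CD-1, were 10 weeks old when injury began. All 4 had received tamoxifen, which activates a Cre recombinase under the acinar gene Ptf1a and leaves a heritable EYFP mark, and then caerulein, a peptide that overstimulates acinar secretion, for 2 weeks (2 mice) or 4 weeks (2 mice). EYFP+ cells were sorted from the digested pancreas and profiled with 10x 3' v3.1 chemistry, which counts each captured transcript once by a unique molecular identifier (UMI). No uninjured mouse is among the samples, so the acinar cells below are acinar cells of injured tissue. The labels name separate mice and nothing more about them.

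A resting acinar cell packs digestive enzymes into granules whose membrane carries its own set of glycoproteins, and a meal or caerulein drives fusion of those granules with the apical surface. When acinar cells turn into duct-like or mucous cells during injury, a process called acinar-to-ductal metaplasia, the granules are lost. Zg16 encodes a lectin of the granule matrix that binds proteoglycans and, in intestinal goblet cells, bacterial cell walls. Sycn encodes syncollin, a small protein on the luminal face of the granule membrane that is needed for efficient exocytosis. Gp2 encodes the major lipid-anchored glycoprotein of that membrane and Cuzd1 encodes a membrane protein with CUB domains, and both carry a zona pellucida domain. Dmbt1 encodes a large secreted glycoprotein with scavenger receptor, CUB and zona pellucida domains. It is a granule component in the mouse pancreas, where it is also called muclin, and a mucosal defence protein of other epithelia.

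The count table held 21140 cells, of which 13362 had 1 of 8 deposited cell types and 7778 had none. Cells per mouse numbered 4715 to 6255 and UMIs per mouse 72459531 to 103610807, and no cell had fewer than 1000 UMIs. The typed cells are those that the authors kept as YFP+, and EYFP transcripts were present in all 13362. That presence may follow from the filter and is no separate check of the mark. The summed level of 7 acinar markers was 250104 to 317264 CPM (UMIs of a gene scaled to the total UMIs of the same mouse and cell type, as counts per 1e6) in Acinar cells and 10587 to 15461 CPM in MucinDuctal cells. A total of 67 cell barcodes occurred in more than 1 library (139 cells); cells were kept as deposited. Since droplets also hold RNA released by other cells, 3064 untyped cells with at least 3 of 5 leukocyte markers served as background. That gate was chosen after its values had been seen.

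The 5 genes all lie on mouse chromosome 7 (mm10). Zg16 spans chr7:127050156-127087328 on the minus strand, Sycn chr7:28540885-28542209 on the plus strand, Gp2 chr7:119442537-119459285 on the minus strand, Cuzd1 chr7:131308554-131322292 on the minus strand and Dmbt1 chr7:131032053-131121630 on the plus strand. Dmbt1 and Cuzd1 are close neighbours, 186923 bases apart with 2 protein-coding genes between them. Cuzd1 lies inside the annotated span of Fgfr2 on the same strand, and Dmbt1 overlaps Fgfr2, Sycn overlaps Samd4b and Zg16 overlaps 2 RNA genes on the opposite strand. How reads in such overlaps were assigned is not given in the sources used here, so those 4 counts carry that uncertainty, and Gp2 overlaps no other gene.

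The first 250 bases upstream of the start of Sycn, Gp2 and Cuzd1 are printed because these genes were high and low together across cell types, and 3 of the 5 genes had an entry. Sycn lies at chr7:28540635-28540884 on the plus strand, Gp2 at chr7:119459273-119459522 and Cuzd1 at chr7:131322293-131322542 on the minus strand. Sequences are from RefSeq (GRCm38.p6, the mm10 assembly), 5′ to 3′ along the gene's strand. RefSeq starts Gp2 later than the annotation used for the span above, so 13 bases of its window lie inside that span. Capitals mark CANNTG, the E-box read by basic helix-loop-helix factors such as Ptf1a, and TATAAA, the TATA box.
Sycn promoter: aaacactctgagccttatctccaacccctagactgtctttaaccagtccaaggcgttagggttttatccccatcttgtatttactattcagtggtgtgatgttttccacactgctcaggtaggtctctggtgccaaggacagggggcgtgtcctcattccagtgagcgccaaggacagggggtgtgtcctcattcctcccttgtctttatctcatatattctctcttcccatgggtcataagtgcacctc
Gp2 promoter: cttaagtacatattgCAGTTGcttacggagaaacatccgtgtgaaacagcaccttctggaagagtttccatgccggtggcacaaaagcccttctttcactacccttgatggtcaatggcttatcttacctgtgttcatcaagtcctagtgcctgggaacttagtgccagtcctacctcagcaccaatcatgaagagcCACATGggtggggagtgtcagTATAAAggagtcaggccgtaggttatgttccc
Cuzd1 promoter: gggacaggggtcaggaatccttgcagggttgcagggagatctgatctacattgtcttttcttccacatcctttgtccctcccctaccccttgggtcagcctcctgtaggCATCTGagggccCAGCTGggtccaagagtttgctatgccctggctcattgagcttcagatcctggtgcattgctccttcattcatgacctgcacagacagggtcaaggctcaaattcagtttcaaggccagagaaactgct
The E-box, the TATA box and TTTCCC, the other element known for the Ptf1a complex, were searched on both strands, and no match overlapped another. Gp2 held 2 CANNTG and 1 TATAAA, Cuzd1 held 2 CANNTG, Sycn held none of the 3 motifs, and TTTCCC was absent from all 3 windows. Over 32526 promoters of the same length, 66.2% held CANNTG, 12.3% TATAAA, 22.0% TTTCCC and 14.3% both CANNTG and TTTCCC. These matches are a description of letters and say nothing of binding.

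Zg16, the matrix lectin, was abundant in Acinar cells of every mouse. Its level there was 8420, 5027, 10217 and 6441 CPM, with values here and below in the order 2-week mouse 1, 2-week mouse 2, 4-week mouse 1 and 4-week mouse 2 (7526 ± 2270 CPM, mean ± SD, n = 4). The lowest mouse at each time was mouse 2, and the times overlapped. Proliferating acinar cells (Acinar.Prolif) had 7612 ± 2946 CPM of Zg16, which does not differ from Acinar cells beyond the spread between mice. Acinar/MucinDuctal cells, the type with features of both, had 3628 ± 931 CPM. In MucinDuctal cells the level was 194, 46.5, 102 and 108 CPM, below Acinar cells of the same mouse by a log2 ratio of -6.19 ± 0.63 (SD, n = 4; lower in 4 of 4 mice).

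Sycn, the exocytosis protein, varied less between mice in Acinar cells than Zg16. It was at 4402, 4393, 5467 and 5392 CPM (4913 ± 597 CPM, SD, n = 4), and both 4-week mice lay above both 2-week mice. Acinar.Prolif cells held 4088 ± 555 CPM, lower than Acinar cells in 4 of 4 mice by a log2 ratio of -0.27 ± 0.09 within mouse. The level was 2372 ± 333 CPM in Acinar/MucinDuctal cells. MucinDuctal cells held 339, 136, 183 and 201 CPM, a log2 ratio to Acinar cells of -4.59 ± 0.60 (lower in 4 of 4 mice).

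Gp2 and Cuzd1, the zona pellucida domain proteins of the membrane, were both high in acinar types and low in MucinDuctal cells. Gp2 was at 341, 666, 415 and 280 CPM in Acinar cells (425 ± 170 CPM, SD, n = 4), highest in 2-week mouse 2, and at 32.2, 44.1, 19.3 and 15.9 CPM in MucinDuctal cells. Cuzd1 was at 1362, 1458, 1648 and 1139 CPM in Acinar cells (1402 ± 212 CPM) and at 31.9, 18.1, 13.2 and 19.4 CPM in MucinDuctal cells. The log2 ratio of MucinDuctal to Acinar cells was -3.97 ± 0.43 for Gp2 and -6.15 ± 0.66 for Cuzd1, and both were lower in 4 of 4 mice. Acinar and MucinDuctal mice did not overlap for Zg16, Sycn, Gp2 or Cuzd1. The types were drawn from the same counts, and the share of all genes so separated was not computed.

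The Acinar/MucinDuctal type, summed over its clusters, lay below Acinar cells for these 4 genes. Its log2 ratio to Acinar cells of the same mouse was -1.04 ± 0.07 for Zg16, -1.05 ± 0.13 for Sycn, -0.87 ± 0.18 for Gp2 and -1.10 ± 0.17 for Cuzd1 (SD, n = 4), each lower in 4 of 4 mice. Intervals of 1 SD around these means overlap. Within mouse, Gp2 lay above Cuzd1 in 4 of 4 mice (-0.71, -1.12, -0.86 and -0.77 against -1.05, -1.15, -1.31 and -0.89). That pair was picked with the values in view, and no order among the 4 genes is read. These means pool deposited clusters that differ. Cluster 3 (968 cells) had ratios of -0.37 ± 0.17 for Zg16, -0.54 ± 0.07 for Sycn, -0.36 ± 0.28 for Gp2 and -0.53 ± 0.08 for Cuzd1. Cluster 4 (928 cells) had -2.51 ± 0.32, -1.95 ± 0.26, -1.84 ± 0.30 and -2.20 ± 0.38 in the same order, below cluster 3 in 4 of 4 mice for each gene. The remaining 59 cells were cluster 15. Median depth in this type was 3387, 19556, 2659 and 3555 UMIs per cell against 26482, 24008, 27905.5 and 32664.5 in Acinar cells. 2-week mouse 2, whose depth in the 2 types was the most alike, had ratios of -1.15 to -0.97.

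Dmbt1, the scavenger receptor glycoprotein, had a different profile. It was at 780, 1139, 768 and 670 CPM in Acinar cells (839 ± 206 CPM, SD, n = 4), at 734, 1675, 788 and 917 CPM in Acinar/MucinDuctal cells and at 718, 2552, 874 and 1415 CPM in MucinDuctal cells (1390 ± 831 CPM). The 3 types overlapped, and 2-week mouse 2 was highest in each. The log2 ratio of MucinDuctal to Acinar cells was 0.58 ± 0.64, above 0 in 3 of 4 mice. That sign depends on the scaling: it was -0.47 with the digestive enzymes left out of the total and -0.10 in UMIs per cell. The other 4 genes kept ratios of -4.65 or lower under both of those scalings.

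**Figure D1:**
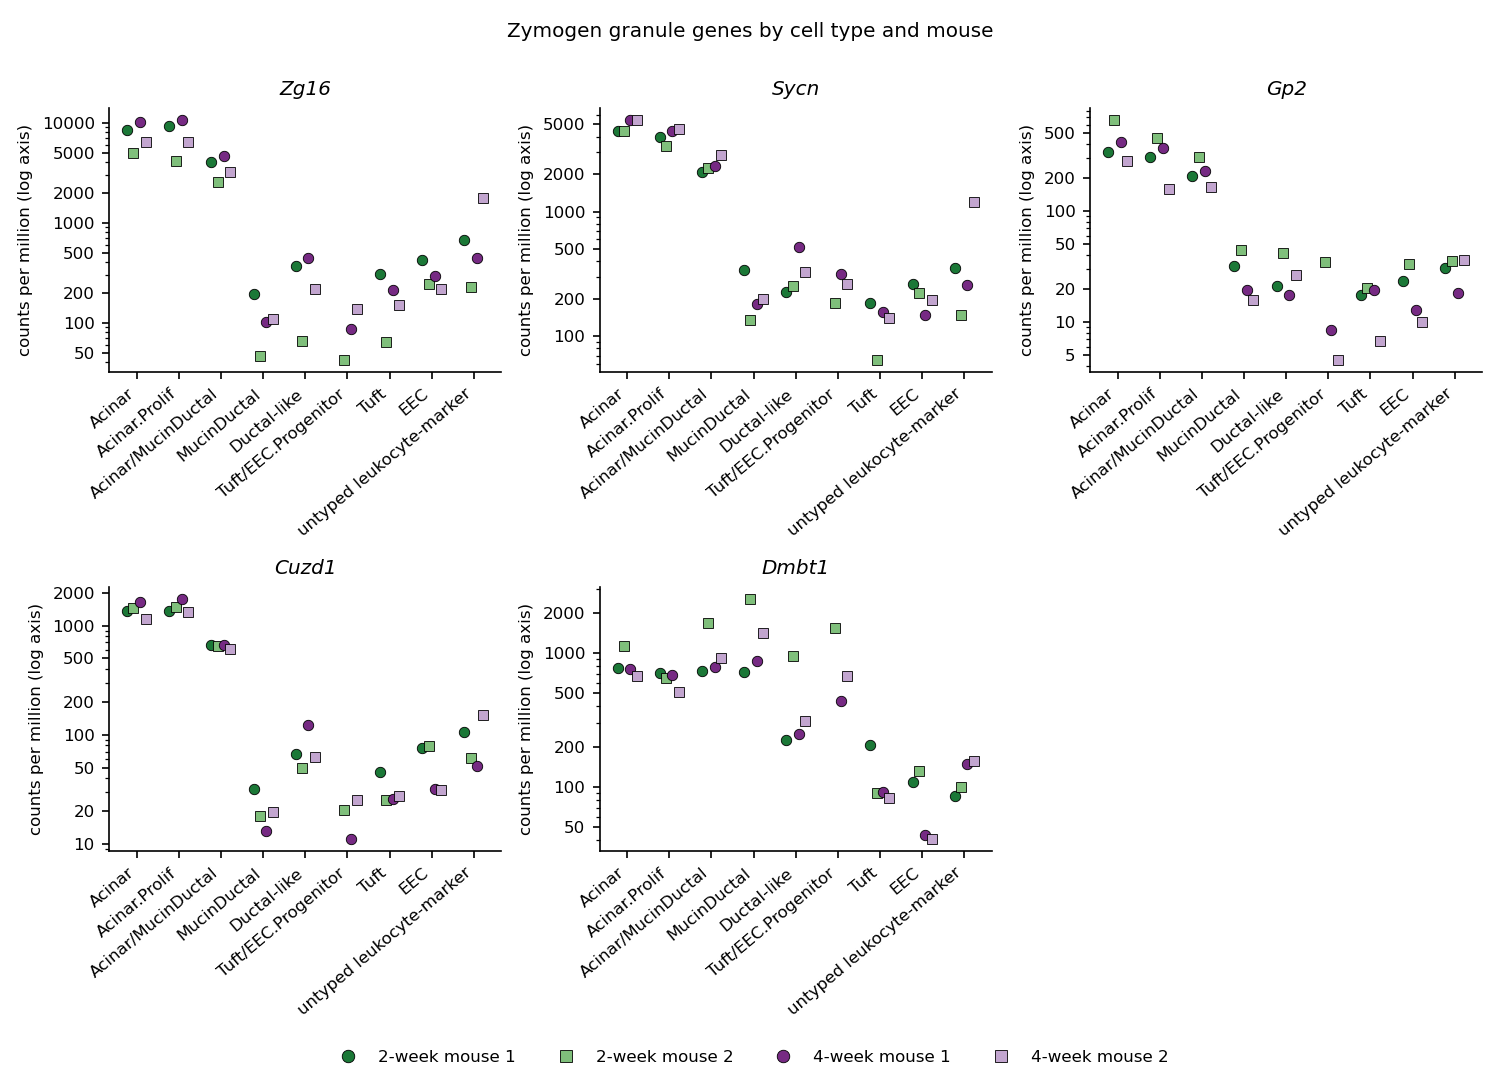
Level of each gene in CPM (log axis) by deposited cell type and in untyped leukocyte-marker cells, 1 point per mouse with at least 20 cells. Zg16, Sycn, Gp2 and Cuzd1 are highest in the 3 acinar types and lower in MucinDuctal cells in 4 of 4 mice, whereas the MucinDuctal points of Dmbt1 (718 to 2552 CPM) overlap those of Acinar cells (670 to 1139 CPM).

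Outside the acinar and mucin types Dmbt1 was graded. Tuft/EEC.Progenitor cells, named for the tuft and enteroendocrine lineages, held 1545, 442 and 674 CPM of Dmbt1 in the 3 mice with at least 20 such cells, which overlaps the MucinDuctal range. Ductal-like cells held 226, 948, 251 and 312 CPM, with 2-week mouse 2 again highest, and Tuft cells, a chemosensory type, held 205, 89.9, 91.1 and 82.4 CPM. EEC, the enteroendocrine cells, held 109, 132, 43.9 and 41.2 CPM. The leukocyte-marker cells held 86.0, 101, 149 and 155 CPM. In CPM, Ductal-like cells lay above leukocyte-marker cells in 4 of 4 mice, Tuft cells in 1 of 4 and EEC in 2 of 4. Counted as UMIs per cell, which rise with depth, Tuft cells lay above leukocyte-marker cells in 4 of 4 mice and EEC in 2 of 4. By the thinned shares described below, Tuft cells and EEC each lay above leukocyte-marker cells in 0 of 4 mice. The Tuft result thus depends on the measure, and the Tuft and EEC levels are not told apart from free RNA here.

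For Zg16, Sycn and Cuzd1 the MucinDuctal levels in CPM were under those of the leukocyte-marker cells. Leukocyte-marker cells, which should not make granule proteins, held 667, 227, 441 and 1760 CPM of Zg16, 350, 148, 258 and 1188 CPM of Sycn and 106, 60.8, 51.7 and 152 CPM of Cuzd1. All of these exceed the MucinDuctal value of the same mouse. In UMIs per cell, which rise with depth, Sycn in MucinDuctal cells (7.88, 3.63, 3.42 and 3.71) lay above leukocyte-marker cells (2.46, 1.02, 1.59 and 7.31) in 3 of 4 mice. The leukocyte-marker level was uneven: the richest 10% of those cells held 46.3%, 70.6%, 73.1% and 81.8% of their Sycn UMIs. Digestive enzymes gave at least 10% of the UMIs in 63, 4, 38 and 96 of the 808, 753, 831 and 672 leukocyte-marker cells. Such cells were kept in the background, and their part in its level was not tested. Gp2 was at 30.7, 35.2, 18.1 and 36.0 CPM in leukocyte-marker cells, below MucinDuctal cells in 3 of 4 mice. In UMIs per cell MucinDuctal cells lay above leukocyte-marker cells in 4 of 4 mice for Gp2, 1 of 4 for Cuzd1 and 0 of 4 for Zg16. Leukocyte-marker cells of 4-week mouse 2 were highest for all 5 genes, with the summed acinar markers also highest there (48218 CPM against 9496 to 17230 CPM in the others).

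Shares of cells with at least 1 UMI were compared after thinning each cell to 1500 UMIs, since median depth was 4629 to 6001.5 UMIs in leukocyte-marker cells and 15110 to 21810 in MucinDuctal cells. Shallower cells left out numbered 0 to 2 per mouse in MucinDuctal, 1 to 17 in Acinar, 21 to 141 in Acinar/MucinDuctal and 15 to 28 among leukocyte-marker cells. At that depth Dmbt1 was found in 38.2%, 82.2%, 51.4% and 62.2% of MucinDuctal cells, in 66.1%, 73.1%, 62.0% and 58.2% of Acinar cells and in 12.3%, 13.1%, 7.05% and 13.7% of leukocyte-marker cells. MucinDuctal cells lay above leukocyte-marker cells in 4 of 4 mice. Without thinning, 84.1% (95% exact binomial interval 80.0 to 87.7), 98.6% (97.9 to 99.2), 87.6% (85.4 to 89.6) and 91.7% (90.0 to 93.2) of MucinDuctal cells had a Dmbt1 UMI, against 38.1%, 35.9%, 17.7% and 32.6% of leukocyte-marker cells. These intervals cover counting error only.

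The same thinning gave the opposite picture for Zg16. It was found in 95.4%, 81.5%, 98.1% and 91.6% of Acinar cells, in 26.2%, 7.38%, 16.2% and 16.9% of MucinDuctal cells and in 58.2%, 18.4%, 32.9% and 47.8% of leukocyte-marker cells. For Sycn the MucinDuctal shares were 25.3%, 13.2%, 15.8% and 19.4%, and those of leukocyte-marker cells 36.9%, 13.8%, 19.6% and 43.3%. For Cuzd1 they were 4.96%, 2.55%, 2.38% and 2.81% against 15.9%, 7.15%, 6.59% and 14.1%. MucinDuctal cells were below leukocyte-marker cells in 4 of 4 mice for each of these 3 genes, and in 3 of 4 for Gp2 (3.96%, 4.50%, 2.08% and 2.04% against 4.75%, 3.61%, 2.22% and 3.46%). At this depth such shares are not told apart from free RNA, and the cells rich in Sycn or Gp2 are described below. In Acinar/MucinDuctal cells all 5 genes lay above leukocyte-marker cells in 4 of 4 mice. Without thinning, at the unequal depths given above, MucinDuctal cells had the higher mean share for Zg16, Sycn, Gp2 and Cuzd1. Mean shares over mice in MucinDuctal and leukocyte-marker cells were then 76.9% and 70.0% for Zg16 and 73.7% and 59.3% for Sycn. They were 23.2% and 11.3% for Gp2 and 30.5% and 28.0% for Cuzd1.

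**Figure D2:**
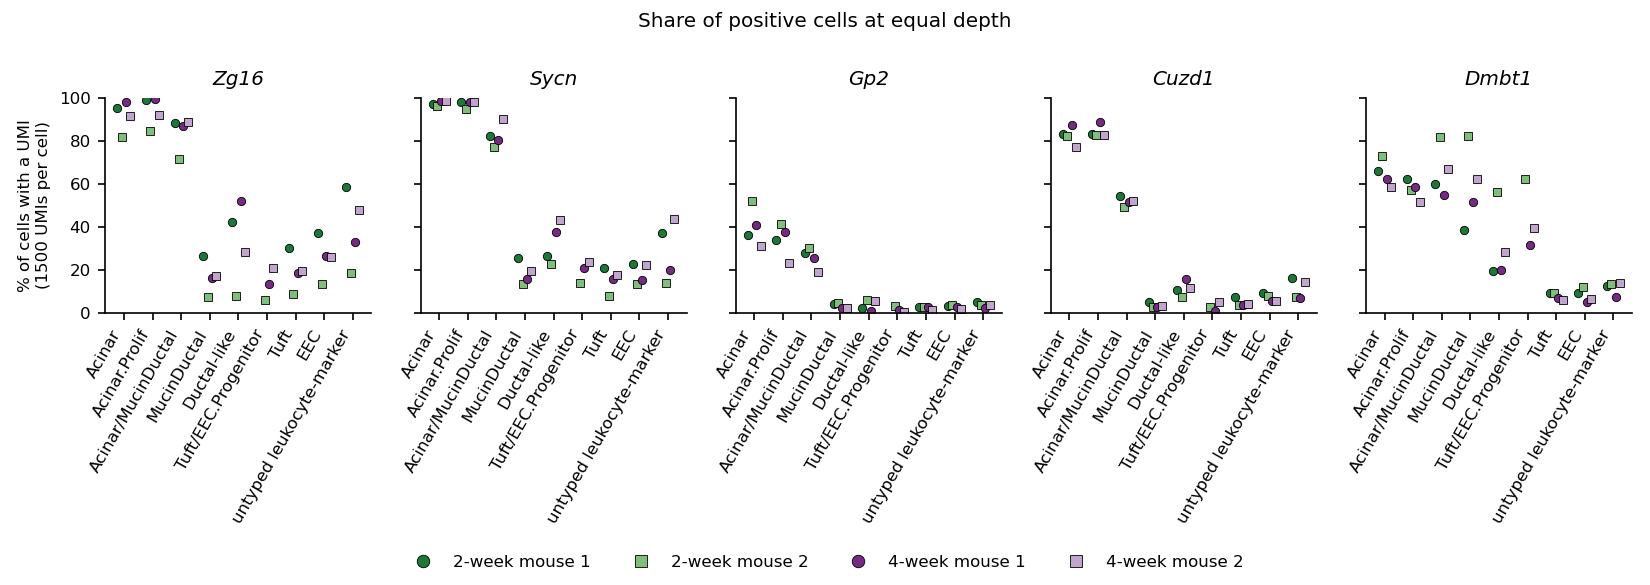
Percent of cells with at least 1 UMI of each gene after thinning every cell to 1500 UMIs, by deposited type and in untyped leukocyte-marker cells, 1 point per mouse. Dmbt1 is the gene whose MucinDuctal points (38.2% to 82.2%) lie above the leukocyte-marker points (7.05% to 13.7%) in 4 of 4 mice.

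Single cells showed the same separation of Dmbt1 from Cuzd1, its chromosomal neighbour. Cells with at least 5 Dmbt1 UMIs and no Cuzd1 UMI, limits set with the data in view, made up 20.8%, 64.6%, 47.6% and 53.8% of MucinDuctal cells. In Acinar cells they made up at most 0.448% in any mouse and in leukocyte-marker cells at most 0.595%. Acinar/MucinDuctal cells lay between, at 3.99%, 5.12%, 4.01% and 3.85%, with the lower depth given above. Cells with this pattern made up 46.5%, 32% and 35.7% of Tuft/EEC.Progenitor cells in the 3 mice with at least 20 cells of that type.

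Within the MucinDuctal type, the 2 deposited clusters differed in Dmbt1. Cluster 1 (2030 cells) held 1798, 2915, 2236 and 2237 CPM and cluster 2 (1953 cells) held 336, 990, 578 and 808 CPM. Every mouse of cluster 1 lay above every mouse of cluster 2, with a log2 ratio within mouse of 1.85 ± 0.43 (SD, n = 4). The share of all genes that separate these clusters in this way was not computed. Sycn was also higher in cluster 1 in 4 of 4 mice, at 890, 148, 421 and 268 CPM against 144, 81.8, 131 and 152 CPM (log2 ratio 1.5 ± 0.85). Ratios for the other genes were smaller, 0.28 ± 0.19 for Zg16 and 0.54 ± 0.21 for Cuzd1 (4 of 4 mice each) and -0.72 ± 0.81 for Gp2 (higher in 1 of 4). The clusters were defined by the authors on the same counts, and the pair was picked with the data in view, so these are descriptions with no test. 2-week mouse 2 supplied 1138 of the 2030 cells of cluster 1, and its Dmbt1 level over the whole type was the highest; the part of cluster makeup in that level was not tested.

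Each gene was then set against 26 digestive enzyme genes, the cargo of the granule. The median enzyme had a mean log2 ratio of MucinDuctal to Acinar cells of -6.11, with a range over the 26 of -7.03 to -1.87. Zg16 and Cuzd1 lay near that median, with log2 differences from the median enzyme of the same mouse of -0.08 ± 0.06 and -0.04 ± 0.26 (SD, n = 4). Sycn lay 1.52 ± 0.26 above it and Gp2 2.13 ± 0.40, both in 4 of 4 mice, and Dmbt1 6.68 ± 1.05. Of the 26 enzymes, 20 had a lower ratio than Sycn, 23 than Gp2 and 26 than Dmbt1. This comparison with single enzymes was added after seeing the data. The MucinDuctal levels of Zg16, Sycn and Cuzd1 were under those of leukocyte-marker cells in CPM. The part of free RNA in these ratios was not tested.

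As UMIs per 1000 enzyme UMIs, a few abundant enzymes set the denominator, and its makeup differed between the types. Clps, which encodes colipase, was 10.2%, 12.8%, 12.5% and 9.02% of enzyme UMIs in Acinar cells and 31.9%, 11.5%, 54.4% and 33.4% in MucinDuctal cells. Ctrb1, a chymotrypsinogen, was 37.4%, 49.7%, 43.8% and 43.8% in Acinar cells and 37.3%, 71.0%, 22.7% and 37.5% in MucinDuctal cells. Their log2 ratios of MucinDuctal to Acinar cells were -3.11 for Clps and -4.65 for Ctrb1, both above the median enzyme. A gene with the ratio of the median enzyme therefore has a lower value per 1000 in MucinDuctal cells.

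For Zg16 the value per 1000 enzyme UMIs was 16.9, 10.5, 18.1 and 11.4 in Acinar cells, 18.5, 13, 19.9 and 17.9 in leukocyte-marker cells and 17.5, 12.3, 19.9 and 12.5 in EEC, each near its own mouse's Acinar value except leukocyte-marker cells of 4-week mouse 2. MucinDuctal cells had 6.40, 3.34, 3.39 and 4.53 UMIs of Zg16 per 1000 enzyme UMIs, below the other 3 classes in every mouse. For Cuzd1 it was 2.74, 3.04, 2.93 and 2.02 in Acinar cells and 1.05, 1.30, 0.440 and 0.817 in MucinDuctal cells.

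Against the same sum, Sycn had 8.85, 9.15, 9.70 and 9.56 UMIs per 1000 enzyme UMIs in Acinar cells and 11.2, 9.76, 6.10 and 8.46 in MucinDuctal cells, where cluster 1 (24.6, 11.3, 19.2 and 14.7) exceeded cluster 2 (5.11, 4.73, 4.14 and 5.45). Gp2 had 0.685, 1.39, 0.736 and 0.496 in Acinar cells and 1.07, 3.17, 0.642 and 0.667 in MucinDuctal cells, with 3 of 4 mice higher in the latter. Dmbt1 had 1.57, 2.37, 1.36 and 1.19 in Acinar cells against 23.7, 183, 29.1 and 59.5 in MucinDuctal cells.

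**Figure D3:**
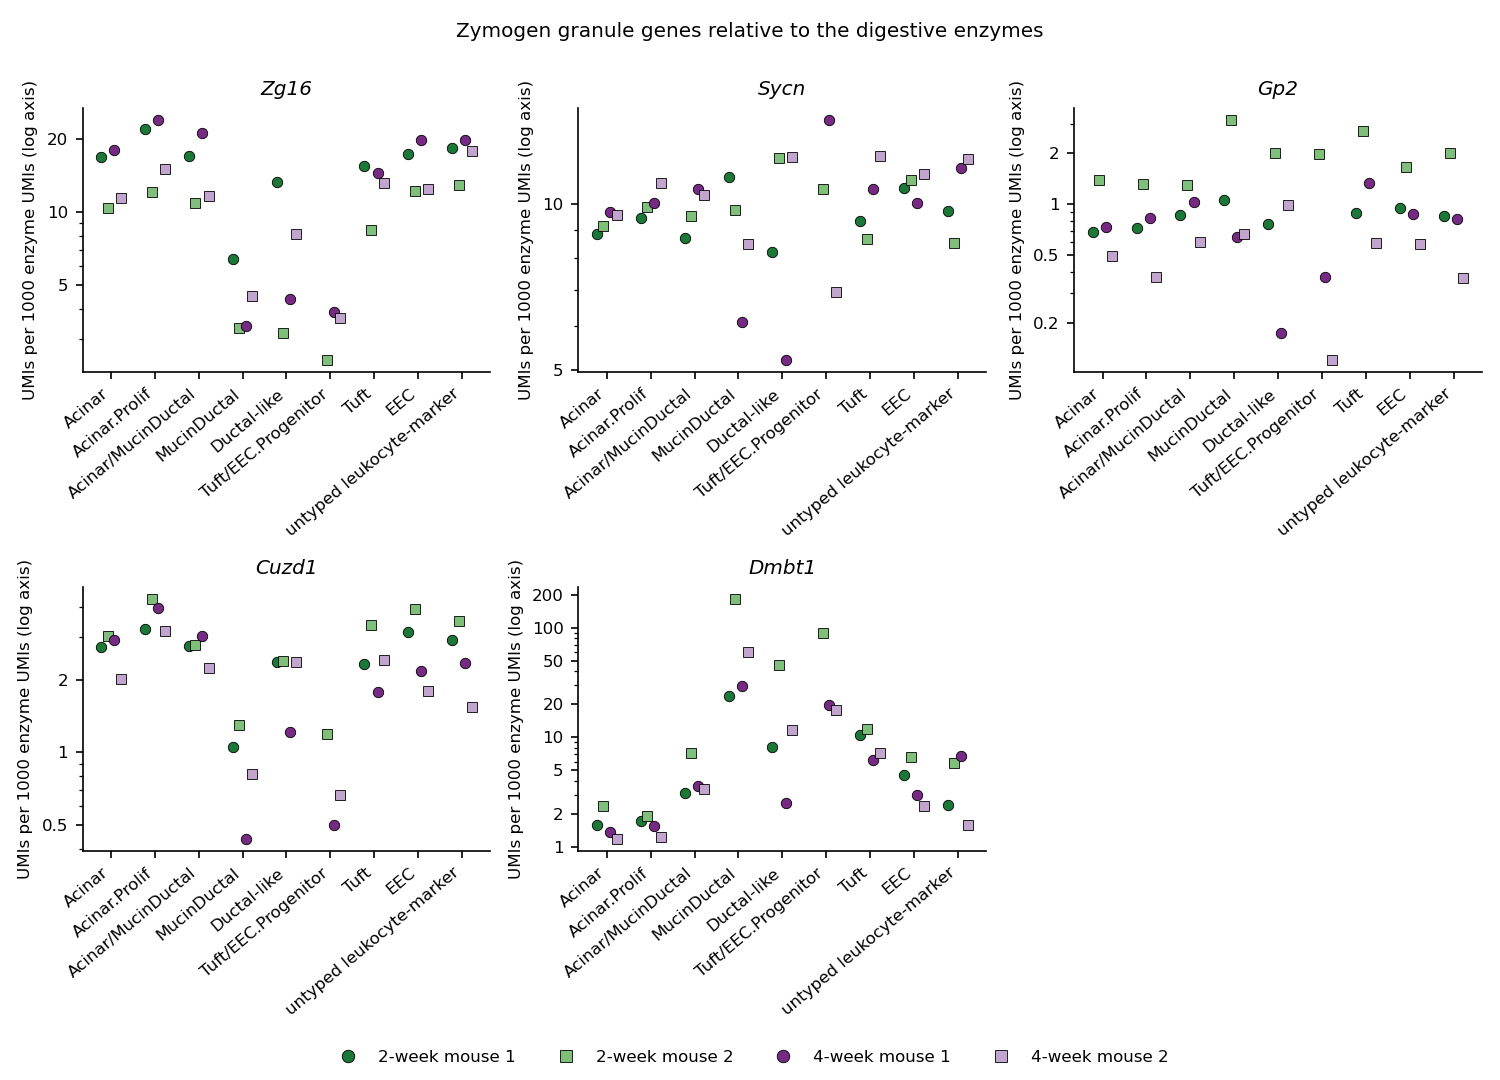
UMIs of each gene per 1000 UMIs of 26 digestive enzyme genes (log axis) by deposited type and in untyped leukocyte-marker cells, 1 point per mouse with at least 20 cells. Dmbt1 lies higher in MucinDuctal than in Acinar cells (23.7 to 183 against 1.19 to 2.37), and Zg16 and Cuzd1 lie lower against a sum rich in Ctrb1 and Clps, although both were near the median enzyme in their log2 ratio.

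A small set of MucinDuctal cells held much of the type's Sycn. Of 3983 MucinDuctal cells, 134 (3.36%) had at least 20 Sycn UMIs, a limit set with the data in view. They came from every mouse (26, 50, 24 and 34 cells) and held 61.6%, 46.3%, 48.7% and 46.2% of the type's Sycn UMIs, and 100 of them were in cluster 1. Their median cell had 40.5 UMIs of Sycn, 2 of Zg16, 0 of Gp2, 0 of Cuzd1 and 36.5 of Dmbt1, of 26002 in all. They were also richer in digestive enzymes, at 9.26% of their UMIs (median 2172 per cell). In the other 3849 MucinDuctal cells the enzymes were 1.78% (median 197). Sycn was concentrated in few cells elsewhere too. In EEC, 7, 14, 4 and 3 such cells held 39.5%, 70.4%, 37.8% and 23.3% of the type's Sycn UMIs, and in Tuft cells 3, 8, 5 and 4 held 25.2%, 36.0%, 37.9% and 18.2%.

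The other granule transcripts were more abundant in Acinar cells with 20 to 169 Sycn UMIs (2078 cells), apart from Dmbt1. The upper limit is the 95th percentile of the MucinDuctal cells above, which have no upper limit themselves, and the medians of Sycn differ. The median Acinar cell of this range had 78 UMIs of Sycn, 119 of Zg16, 29 of Cuzd1 and 15 of Dmbt1. At most 5 Zg16 UMIs were found in 117 of the 134 MucinDuctal cells and in 103 of the 2078 Acinar cells, and no Cuzd1 UMI in 78 and 6 of them. The other 3849 MucinDuctal cells had medians of 1 for Zg16 and 0 for Cuzd1, so these low counts are not particular to the 134. Ctrb1 was 80.7% of enzyme UMIs in these MucinDuctal cells and 42.5% in the Acinar cells, while in the other 3849 MucinDuctal cells it was 32.2% (17.4% to 64.2% by mouse) and Clps 38.9%. Leukocyte-marker cells with at least 20 Sycn UMIs (43 cells) had a median of 42 UMIs of Sycn and 95 of Zg16, with Ctrb1 at 34.7%. The 12 Tuft/EEC.Progenitor cells of that kind resembled the MucinDuctal ones, with medians of 54.5 for Sycn, 1.5 for Zg16 and 0.5 for Cuzd1 and Ctrb1 at 83.6%. The 28 EEC cells had medians of 52 for Sycn and 48 for Zg16 with Ctrb1 at 48.8%, and the 20 Tuft cells 33.5, 5.5 and 51.9%. No doublet caller was run, and the part of doublets in these cells was not tested.

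**Figure D4:**
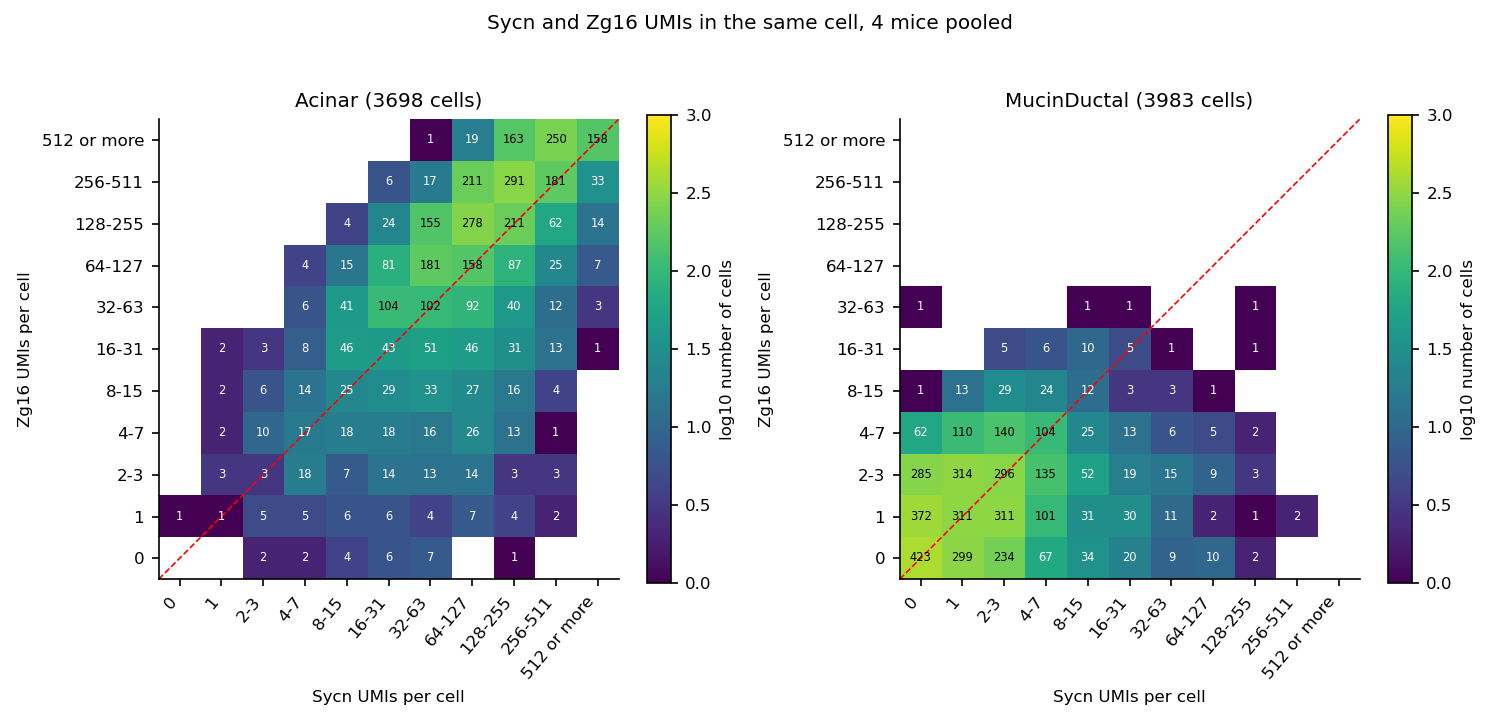
Number of cells by Sycn UMIs (x) and Zg16 UMIs (y) in the same cell, in bins, for Acinar and MucinDuctal cells of 4 mice pooled; the dashed line marks equal counts. Of 134 MucinDuctal cells with at least 20 Sycn UMIs, 132 had fewer Zg16 than Sycn UMIs. The other 3849 MucinDuctal cells had a median of 1 Zg16 UMI, so a choice by high Sycn favours that side.

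Acinar cells themselves differed between mice in this balance. Fewer Zg16 than Sycn UMIs were counted in 19.3%, 50.4%, 18.4% and 47.3% of Acinar cells. The high value occurred in 1 mouse at each time. The median Acinar cell had 181, 63, 230 and 153 Zg16 UMIs and 91, 88, 124 and 149 Sycn UMIs. Gp2 showed a smaller set in MucinDuctal cells: 45 cells, 30 of them from 2-week mouse 2, had at least 10 Gp2 UMIs (also a limit set with the data in view) with medians of 16 for Gp2, 1 for Zg16, 1 for Sycn and 0 for Cuzd1. Of these, 16 were in cluster 1 and 29 in cluster 2, against 100 and 34 of the MucinDuctal cells rich in Sycn. In 1536 Acinar cells with at least 10 Gp2 UMIs the medians were 20.5 for Gp2, 265.5 for Zg16 and 180 for Sycn.

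Genes most alike in profile were read from 28 sums (4 mice by 7 types) over 7973 genes, by Pearson's r of log2(CPM + 1). The sums share libraries and free RNA, and r is given as a description. Zg16 was closest to the elastase gene Cela2a (r = 0.99), then Ctrl, Serpini2, Pnlip and Cela3b, which are pancreatic secretory genes. Sycn was closest to Ctrb1 (0.98), and Pnliprp1, Cpa1 and Try10 were also among its closest genes. Cuzd1 was closest to Erp27 (1.00 after rounding), a chaperone gene of the endoplasmic reticulum, then Cpa1, Try10, Cel and Pnliprp1. Gp2 was closest to Reg3a (0.96), then Reg2, Sostdc1, Reg3d and Erp27, 3 of which are Reg family genes. For Dmbt1 the closest were Sardh (0.91), Gpx8 (0.90), Dram1, Pecr and Tc2n, none of them a digestive enzyme. Among the 5 genes, r was 0.97 for Zg16 with Cuzd1, 0.98 for Sycn with Cuzd1 and 0.88 for Zg16 with Gp2, while Dmbt1 had 0.36 to 0.64 with the others.

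The second question was whether levels differed between 4 and 2 weeks of caerulein, with the mouse as replicate (2 against 2). In Acinar cells 0 of the 5 genes were called by edgeR's quasi-likelihood test at an adjusted p under 0.05, where 0% of 12343 genes were called. DESeq2 called 0 as well (0.14% of 12175 genes), and 0 had an unadjusted p under 0.05 by edgeR (2.79% of all genes). Sycn had a log2 change of 0.75 (SE 0.34, adjusted p = 0.998, edgeR), with both 4-week mice higher, an arrangement seen in 0.762% of genes. The log2 change was 0.73 (SE 0.48) for Zg16 and 0.45 (SE 0.34) for Cuzd1, with overlapping mice. Dmbt1 was at 0.07 (SE 0.30), lower in CPM in both 4-week mice as were 61.8% of genes, and Gp2 at -0.03 (SE 0.36). The digestive enzymes, 26 tested, had a median log2 change of 0.59 against -0.03 over all genes, and 0 were called.

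In MucinDuctal cells 0 of 5 were called by edgeR (0% of 13463 genes) and 0 by DESeq2 (0.319% of 14128 genes). Gp2 alone had an unadjusted p under 0.05 by edgeR (5.39% of all genes). Gp2 had a log2 change of -1.0 (SE 0.20, adjusted p = 0.824, edgeR), lower in both 4-week mice as were 30.2% of genes. The log2 change was -0.09 for Zg16, -0.20 for Sycn, -0.49 for Cuzd1 and -0.38 for Dmbt1. The difference between the time changes of MucinDuctal and Acinar cells was tested as an interaction. There 0 of 5 genes were called by edgeR (0% of 14098 genes) or DESeq2 (0% of 16399 genes). By edgeR, 1 of the 5, Gp2, had an unadjusted p under 0.05 (3.05% of all genes), and by DESeq2 3 did, Gp2, Sycn and Cuzd1 (0.898% of all genes). The edgeR difference was -0.99 (SE 0.32, unadjusted p = 0.0158, adjusted p = 1) for Gp2, -0.90 (SE 0.53) for Cuzd1, -0.83 (SE 0.60) for Sycn, -0.55 (SE 0.67) for Zg16 and -0.26 (SE 0.62) for Dmbt1.

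Other parts of the granule pathway were read in the same fits. Of 12 genes for granule exocytosis and trafficking, 11 were tested in Acinar and 12 in MucinDuctal cells and 0 were called in either. Vamp8, the granule SNARE, averaged 97.3 CPM in Acinar and 248 CPM in MucinDuctal cells, Rab3d, a granule GTPase, 70.7 and 144 CPM, Rab27b 28.7 and 86.4 CPM and its effector Sytl1 24.4 and 54.7 CPM. Of the 12 genes, 11 had a higher mean CPM in MucinDuctal cells. With the enzymes left out of the total, a scaling added after seeing the data, 10 did, and the levels moved closer: 205 and 254 per 1e6 for Vamp8, 149 and 148 for Rab3d, 60.1 and 88.7 for Rab27b and 51.3 and 56.1 for Sytl1. Rab26, named after its values were seen, was lower under both scalings (12.6 and 1.34 CPM). Of 6 acinar transcription factors 0 were called in either type. Ptf1a averaged 57.6 CPM in Acinar and 1.72 CPM in MucinDuctal cells, its partner Rbpjl 157 and 15.5 CPM, Bhlha15, which drives granule formation, 79.1 and 28.6 CPM, and Xbp1, a secretory regulator, 196 and 423 CPM (410 and 434 per 1e6 without the enzymes).

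Mucous secretory genes (8 tested in Acinar, 9 in MucinDuctal cells) and zona pellucida domain genes beside Gp2, Cuzd1 and Dmbt1 (1 and 2 tested) also gave 0 calls in both types. In Acinar.Prolif (0.00995% of genes called), Acinar/MucinDuctal (0%), Ductal-like (0%) and Tuft cells (0%) edgeR and DESeq2 each called 0 of the 5, with 1 unadjusted p under 0.05 among the 20, for Sycn in Ductal-like cells. The share of all genes with such a p was 2.45%, 3.42%, 5.27% and 6.74% in the same order. The called shares in parentheses are by edgeR, and DESeq2 called 0.0118%, 0.107%, 0.00602% and 0.236% of all genes in that order.

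In EEC, 4 of the 5 transcripts were lower in both 4-week mice, where their levels were below those of leukocyte-marker cells of the same mouse. Dmbt1 was at 109, 132, 43.9 and 41.2 CPM, Cuzd1 at 76.5, 78.6, 32.1 and 31.1 CPM and Gp2 at 23.2, 33.4, 12.9 and 10.1 CPM. The times did not overlap for these 3 genes or for Sycn (261, 221, 148 and 197 CPM), an arrangement that 23.6% of genes had. Zg16 overlapped, at 425, 245, 294 and 217 CPM. edgeR called 0 of 5 (0% of 11869 genes), with 4 unadjusted p under 0.05 (4.03% of all genes), while DESeq2 called 2, Dmbt1 and Cuzd1 (0.112% of 12449 genes).

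The log2 change in EEC was -1.41 (SE 0.14) for Dmbt1 and -1.21 (SE 0.14) for Cuzd1, each with an adjusted p of 0.147 by edgeR. They ranked 1 and 3 by p among the genes tested. Gp2 had -1.20 (SE 0.24, adjusted p = 0.802, edgeR), Sycn -0.41 (SE 0.16) and Zg16 -0.31 (SE 0.40). Of the digestive enzymes, 25 were tested and 0 called, 18 of them negative, with a median of -0.34 against -0.01 over all genes. By edgeR, 9 of the 25 had an unadjusted p under 0.05 with a negative change and 0 with a positive one (4.03% of all genes in either direction). Thinned shares in EEC were 8.90%, 12.1%, 4.86% and 6.18% for Dmbt1, below leukocyte-marker cells in 4 of 4 mice.

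Some enteroendocrine subtypes, whose cells are also in the EEC sums, held the only calls by edgeR. They are named because they passed. In ECL (Tac1+) cells (43, 71, 46 and 57 cells) Sycn was at 433, 422, 214 and 160 CPM and fell by 1.21 on the log2 scale (SE 0.19, adjusted p = 0.0280, edgeR), 1 of 5 genes called where 0.0816% of 7349 genes were. In Ppy+ cells (40, 20, 45 and 35 cells) Cuzd1 was at 110, 199, 38.3 and 28.9 CPM, from 65, 88, 24 and 14 UMIs, and fell by 1.99 (SE 0.34, adjusted p = 0.0471, edgeR), 1 of 5 where 0.159% of 6283 genes were. Both 4-week mice were lower for either gene, as for 15.2% of genes in ECL (Tac1+) and 30.9% in Ppy+ cells, and an unadjusted p under 0.05 was reached by 5.17% and 6.59% of all genes. Of the 5 genes, 4 in each subtype had that arrangement, and 4 and 2 had such a p by edgeR. In ECL (Tac1+) cells Dmbt1 (-1.43), Cuzd1 (-1.42) and Gp2 (-1.23) changed as much as Sycn or more without a call. Of 23 digestive enzymes tested, 1 was called, as lower, in ECL (Tac1+) cells (18 negative and 5 positive, median log2 change -0.74). In Ppy+ cells 2 of 23 were called, as lower (all 23 negative, median -1.12). By edgeR, 14 and 10 of the 23 had an unadjusted p under 0.05 with a negative change, and 0 with a positive one.

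Neither call held when cells with at least 10% digestive enzyme UMIs were left out, an alternative chosen after seeing the data. There the change was -0.67 for Sycn in ECL (Tac1+) cells (adjusted p = 0.999) and -1.37 for Cuzd1 in Ppy+ cells (adjusted p = 0.865). In EEC, which lost 9, 16, 8 and 7 cells this way, Dmbt1 was at 102, 92.0, 23.9 and 35.2 CPM with a log2 change of -1.63 (SE 0.19, adjusted p = 0.405, edgeR). Cuzd1 was at 66.5, 36.3, 19.8 and 28.0 CPM with -1.03, and Gp2 at 21.5, 15.8, 7.88 and 6.58 CPM. Both 4-week mice were below both 2-week mice for Dmbt1, Cuzd1 and Gp2. The share of all genes so arranged without these cells was not computed, and it was 23.6% over all EEC. The times overlapped for Sycn in EEC (194, 71.9, 88.6 and 148 CPM), Sycn in ECL (Tac1+) cells (396, 69.0, 125 and 152 CPM) and Cuzd1 in Ppy+ cells (100.1, 24.2, 16.7 and 28.9 CPM). Without 4-week mouse 2 the ECL (Tac1+) call for Sycn was lost (adjusted p = 0.482). DESeq2 gave adjusted p = 0.0613 and 0.0605 for the 2 calls. A fit that was not robust gave 0.137 and 0.184 (edgeR), and with only cells of at least 2 EYFP UMIs the Ppy+ call for Cuzd1 was lost (adjusted p = 0.903). In the other 5 subtypes edgeR and DESeq2 each called 0 of the 5 genes, with 0 to 2 unadjusted p under 0.05 per subtype. The share of all genes called by edgeR there was 0.0154% in Delta (Sst+), 0.0453% in EEC-Progenitor (Neurog3+), 0% in Epsilon (Ghrl+), 0.114% in Tuft-3 and 0% in Tuft-2 cells. DESeq2 called 0.013%, 0.06%, 0.0059%, 0.125% and 0.0061% of all genes in the same order. By edgeR, an unadjusted p under 0.05 was reached by 6.17%, 5.08%, 3.81%, 6.79% and 3.91% of all genes in the same order.

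**Figure D5:**
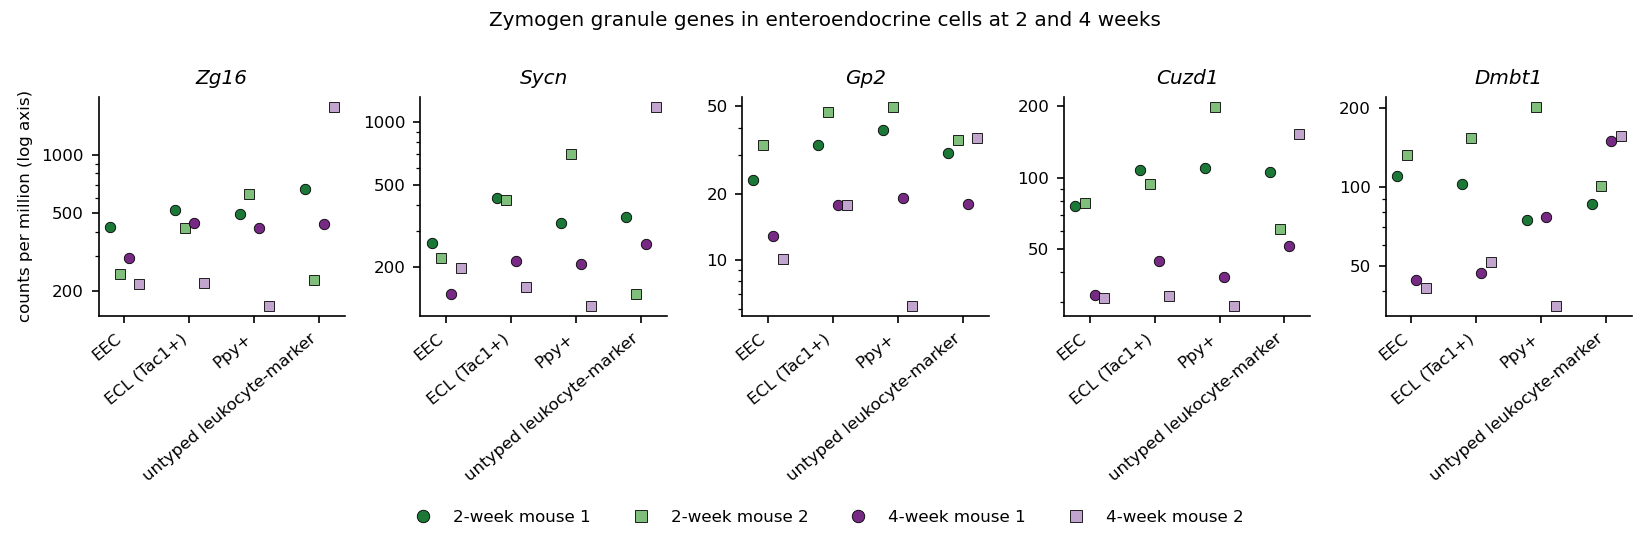
Level of each gene in CPM (log axis) in EEC, in the ECL (Tac1+) and Ppy+ subtypes and in untyped leukocyte-marker cells, 1 point per mouse, green for 2 weeks and purple for 4 weeks. In EEC the 4-week points of Dmbt1 (41.2 and 43.9 CPM) and Cuzd1 (31.1 and 32.1 CPM) lie below the 2-week points.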

How the data were processed

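The authors deposited raw UMI counts per gene and cell, not normalized, for sorted EYFP+ cells of 4 mice, with cell type and subtype labels. Cell Ranger 4.0.0, Seurat 3.2.3 and the mm10 build are named, per the submitters' processing notes; the annotation used for counting, the quality limits, doublet handling and the way labels were assigned are not given in the sources used here. Labels were taken as deposited and no doublet caller was run. The mouse of each cell was read from the cell's name.

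Counts were summed per mouse and type. CPM, log2 ratios to Acinar cells of the same mouse and shares of cells (95% exact Clopper-Pearson intervals, counting error only; thinned to 1500 UMIs, 20 draws) were computed from the deposited counts, with no p between types, since the authors drew the types from these counts. Times were compared in each type or subtype with at least 20 cells in each mouse by edgeR 4.0.16 under R 4.3.3 (quasi-likelihood, robust, TMM, filterByExpr), with Benjamini-Hochberg adjustment over all genes of the type at 0.05, and by an interaction of time and type with mouse as a block. P-values weigh the change between times against the spread between 2 mice per time, as moderated over all genes by the fit. Alternatives were DESeq2 1.42.0, no gene filter, library sizes without the digestive enzymes, a fit that was not robust, cells with at least 2 EYFP UMIs and leaving out each mouse. The library sizes without enzymes were used without TMM. The 67 shared barcodes were not removed. Scripts were tested on simulated counts, where the interaction missed more of the changed genes than the tests within a type, so its lack of calls says little.

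Named genes were the 5 members in every type, up to 4 genes per pathway list (those of highest mean CPM in Acinar cells) and the 5 genes most alike to each member among those with a mean of at least 10 CPM, of which 1 is not reported here. The members and lists were chosen with earlier results of these data known. Uromod and Amy2b were listed but are not used here. Gene positions are from the GENCODE annotation of mm10.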

Additional observations from a re-analysis of the deposited data

How the results depend on the processing

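Between 2 mice a time, calls were few and moved with the settings. Among 14 types and subtypes, 12 had 0 of the 5 genes called. Counts of the 5 under other settings follow, with the share of all genes called in parentheses. The setting with library sizes without enzymes also left out TMM. In ECL (Tac1+) cells 1 became 0 with DESeq2 (0.0925%), 3 without a gene filter (0.34%), 2 with library sizes without enzymes (0.136%), 0 with a fit that was not robust (0%) and 0 without cells of at least 10% enzyme UMIs (0.0274%). In Ppy+ cells 1 became 0 with DESeq2 (0.563%), 2 without a filter (0.392%), 0 with a fit that was not robust (0.0159%), 0 with at least 2 EYFP UMIs (0.086%) and 0 without cells of at least 10% enzyme UMIs (0.0812%). In EEC 0 became 2 with DESeq2 (0.112%), 3 without a filter (0.387%) and 2 with library sizes without enzymes (0.0927%). Without a filter EEC-Progenitor (Neurog3+) cells gave 2 (0.3%) and Epsilon (Ghrl+) cells 1 (0.13%). Leaving out each mouse gave 0 to 1 in Acinar.Prolif, 0 to 2 in Delta (Sst+), Ductal-like, EEC-Progenitor (Neurog3+), Epsilon (Ghrl+), MucinDuctal, Tuft and Tuft-2, 0 to 3 in ECL (Tac1+), EEC and Tuft-3 and 1 to 5 in Ppy+ cells. The share of all genes called in these fits reached 1.34%, 0.776%, 3.11%, 2.03%, 2.07%, 1.34%, 2.31%, 1.27%, 1.86%, 3%, 2.91% and 2.16% in the same order, and the 5 of 5 in Ppy+ cells (without 4-week mouse 1) stood beside 0.779%. A lone mouse is then assumed to vary like the other group. The interaction gave 0 calls in 6 of 6 alternatives, where 0% to 6.64% of all genes were called.

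Of 17 log2 changes examined, 10 kept their sign throughout. Gp2 in Acinar cells was 0.013 with DESeq2 and -0.39 to 0.35 without 1 mouse. Dmbt1 in Acinar cells was -0.18 with library sizes without enzymes and -0.083 to 0.22 without 1 mouse. Without 1 mouse MucinDuctal changes ranged from -0.80 to 1.33 for Zg16 (1.33 without 2-week mouse 1, adjusted p = 0.0319, edgeR), -0.73 to 0.66 for Sycn, -0.87 to 0.0092 for Cuzd1 and -1.0 to 0.76 for Dmbt1, and that of Zg16 in EEC from -0.70 to 0.22. The causes were not tested. The setting with library sizes without enzymes, where TMM was also left out, moved the median of all genes. The shift was -0.23 in Acinar, -0.11 in MucinDuctal, -0.20 in Epsilon (Ghrl+) and -0.20 in Ppy+ cells. The parts of the enzymes and of TMM in these shifts were not tested.

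MucinDuctal to Acinar log2 ratios with enzymes left out of the total, then in UMIs per cell, were -7.23 and -6.86 for Zg16, -5.64 and -5.27 for Sycn, -5.02 and -4.65 for Gp2, -7.19 and -6.82 for Cuzd1 and -0.47 and -0.10 for Dmbt1. The share of positive MucinDuctal cells minus that of leukocyte-marker cells moved with thinning for all 5 genes. No paired analysis was possible because time differs between mice and the labels pair none of them.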
